A study of Sus scrofa domesticus with 150 samples.

Results

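The wound edge and the wound center on day 4 after wounding were compared in 12 of the 150 samples of the series, 6 from the edge and 6 from the center, chosen by the day and location in their labels. They came from 6 full-thickness excisional wounds on the backs of 3 female Yorkshire-mix pigs (animals 1326, 1327 and 1328, wounds F and G of each), and each wound gave 1 edge and 1 center biopsy. All wounds were covered with Telfa Clear and Tegaderm, no treatment was compared, a topical antibiotic was put on biopsy sites, and the age of the animals was not given. The same 3 animals gave excised skin on day 0, 1 sample each, and edge and center biopsies on days 2 and 6. Wounds of 1 animal are not independent animals, so the p-values measure the spread between wounds.

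A full-thickness wound loses its epidermis and dermis, and new epidermis can come only from keratinocytes at its margin and from hair follicles left there. The center is filled meanwhile by granulation tissue, in which fibroblasts lay down collagen, blood vessels sprout, and macrophages and other leukocytes clear debris. An edge biopsy holds both epidermis and the tissue under it, and every level below is a share of the whole sample. Fewer cells of a type and less RNA per cell therefore cannot be told apart.

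The libraries held from 16875532 to 19573114 counts at the edge and from 13710527 to 21782605 in the center. Edge samples resembled each other (Pearson's r on log2(1 + CPM) from 0.910 to 0.971, 15 pairs), as did center samples (0.916 to 0.983), and edge and center samples less so (0.777 to 0.896, 36 pairs). The labels were checked against markers of epidermis. Listed markers of basal keratinocytes summed to 15059 to 33973 CPM (counts scaled to a common library size, TMM-normalized) at the edge and to 262 to 479 in the center, so both locations match their names. Much of the center sum came from DST, which did not differ (medians of 202 CPM at the edge and 184 in the center), while KRT5 had a center median of 34.5. All keratin genes together took 4.68% to 8.89% of edge counts and 0.0124% to 0.0656% of center counts, a trace in each center sample. 1 center library, that of animal 1326 wound F, stood apart with 3616 CPM of listed skeletal muscle genes, against 12.4 to 140 in the other center samples and 11.4 to 14.8 at the edge.

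Of 14489 genes tested, 6116 differed between edge and center (edgeR's quasi-likelihood test with the wound as block, Benjamini-Hochberg adjusted p below 0.05). 3011 genes were higher at the edge (20.8% of those tested) and 3105 were higher in the center (21.4%). Counts of list members below are to be read against these shares. The filter took counts from either location, so genes near 0 in the center passed it by edge counts and could be called only toward the edge. The reverse held for genes near 0 at the edge. The sizes were unequal. At least 2-fold differences numbered 1586 toward the edge and 446 toward the center, and at least 16-fold differences 521 and 1. The direction was the same in 6 of 6 wounds for 2644 of the edge-high and 2557 of the center-high genes. The lowest edge sample lay above the highest center sample for 1600 genes, and the reverse held for 526. The median log2 difference of all genes tested was -0.06. Without wound F of animal 1326, 5285 genes passed, 2938 toward the edge and 2347 toward the center. Leaving out any 1 wound gave 4821 to 5986 genes. The lowest count was without wound G of animal 1328, with 2526 toward the edge and 2295 toward the center. Without TMM, 2742 genes were higher at the edge and 3624 in the center.

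**Figure D1:**
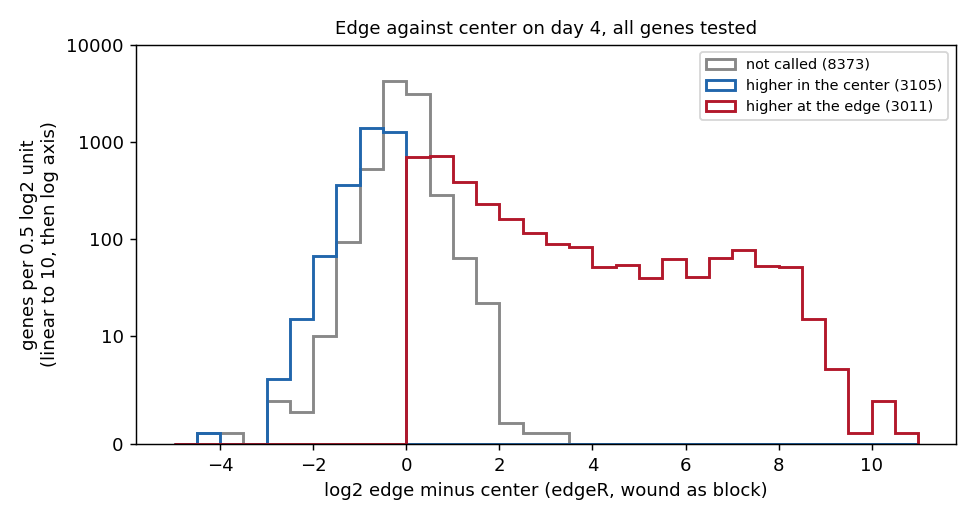
Number of genes per bin of 0.5 log2 units (vertical axis, linear to 10 and then logarithmic) against the log2 edge minus center difference (horizontal axis), as separate outlines for the 3011 genes higher at the edge, the 3105 higher in the center and those not called. The edge-high outline extends to a log2 difference of 10.62, while the center-high outline holds only 446 genes past a 2-fold difference.

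Many of the largest differences were in genes of the epidermis. In the basal layer, which holds the dividing keratinocytes, 8 of 9 tested markers were higher at the edge, none was higher in the center, and the median log2 difference was 7.18. KRT5, a keratin of that layer, ranged from 6003 to 11327 CPM at the edge (median 8350) and from 14.1 to 51.7 in the center (median 34.5). The locations did not overlap, and the log2 difference was 8.16 ± 0.28 (SE, n = 6 wounds, adjusted p = 5.64e-08). COL17A1, a collagen of the hemidesmosomes that anchor basal cells, was at 894 to 1268 CPM against 2.28 to 10.5. KRT15, a keratin of basal and follicle cells, had a median of 11441 CPM at the edge and 5371 in day 0 skin.

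Differentiating keratinocytes were as distinct, with 15 of 16 suprabasal and cornified markers higher at the edge (median log2 difference 7.44). KRT10, the main keratin of the spinous layer, was at 7826 to 18437 CPM at the edge, 23.0 to 108 in the center and 8890 to 19434 in day 0 skin. The edge range overlapped that of unwounded skin. The desmosomal cadherins DSG1 and DSC1 differed by 8.75 ± 0.36 and 8.43 ± 0.19 on the log2 scale. TGM3 was the only tested marker of this list that did not pass, with medians of 578 CPM at the edge and 805 in the center. The center sum of the whole list had a median of 994 CPM, against the 805 of TGM3 alone.

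The named genes of wound-activated keratinocytes were above their day 0 level at the edge. KRT6C, a keratin induced in injured epidermis, was at 5908 to 21321 CPM at the edge, 14.3 to 127 in the center and 572 to 995 in day 0 skin. SFN, the epithelial 14-3-3 protein, was at 1112 to 2484, 4.59 to 15.2 and 732 to 969 CPM. Of 11 tested members of the list, 8 were higher at the edge. The receptor PLAUR, which leukocytes also make, was the 1 member higher in the center. Day 0 levels are a description without a test, on library totals rather than TMM.

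All 14 listed genes of epithelial junctions were higher at the edge, with no overlap of the locations for any of them. Over all 14489 genes tested, the edge lay wholly above the center for 1600. ELF3 and ESRP1, with center medians of 0.0316 and 0.436 CPM, passed the filter only through edge counts. E-cadherin (CDH1) was at 195 to 402 CPM against 0.137 to 2.26, and desmoplakin (DSP) at 2994 to 5704 against 6.29 to 25.3. The epithelial splicing factor ESRP1 differed by 8.24 ± 0.18 (adjusted p = 1.13e-08). CLDN1, a tight junction claudin, had a median of 240 CPM at the edge against 492 to 683 in day 0 skin.

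Enzymes that make the lipids of the skin barrier followed the epidermis, with 10 of 14 higher at the edge and 1 in the center, whose call was lost without either wound of animal 1326, either of animal 1328 or the block. CERS3, the ceramide synthase of the epidermis, was at 55.1 to 123 CPM at the edge and 0 to 0.491 in the center. ABCA12, which loads lipid into lamellar granules, was at 35.1 to 87.5 against 0 to 0.253. Genes this near 0 in the center passed the filter only through edge counts. Cholesterol synthesis showed smaller differences in the same direction. Of 17 enzymes and regulators, 12 were higher at the edge and 0 in the center by edgeR. At an unadjusted p below 0.05 the center count was 1, and DESeq2 called 0 there. The median log2 difference was 0.95. HMGCS1, an early enzyme of the pathway, was at 182 to 342 CPM at the edge and 64.2 to 90.0 in the center, a log2 difference of 1.79 ± 0.15 (adjusted p = 2.07e-05).

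**Figure D2:**
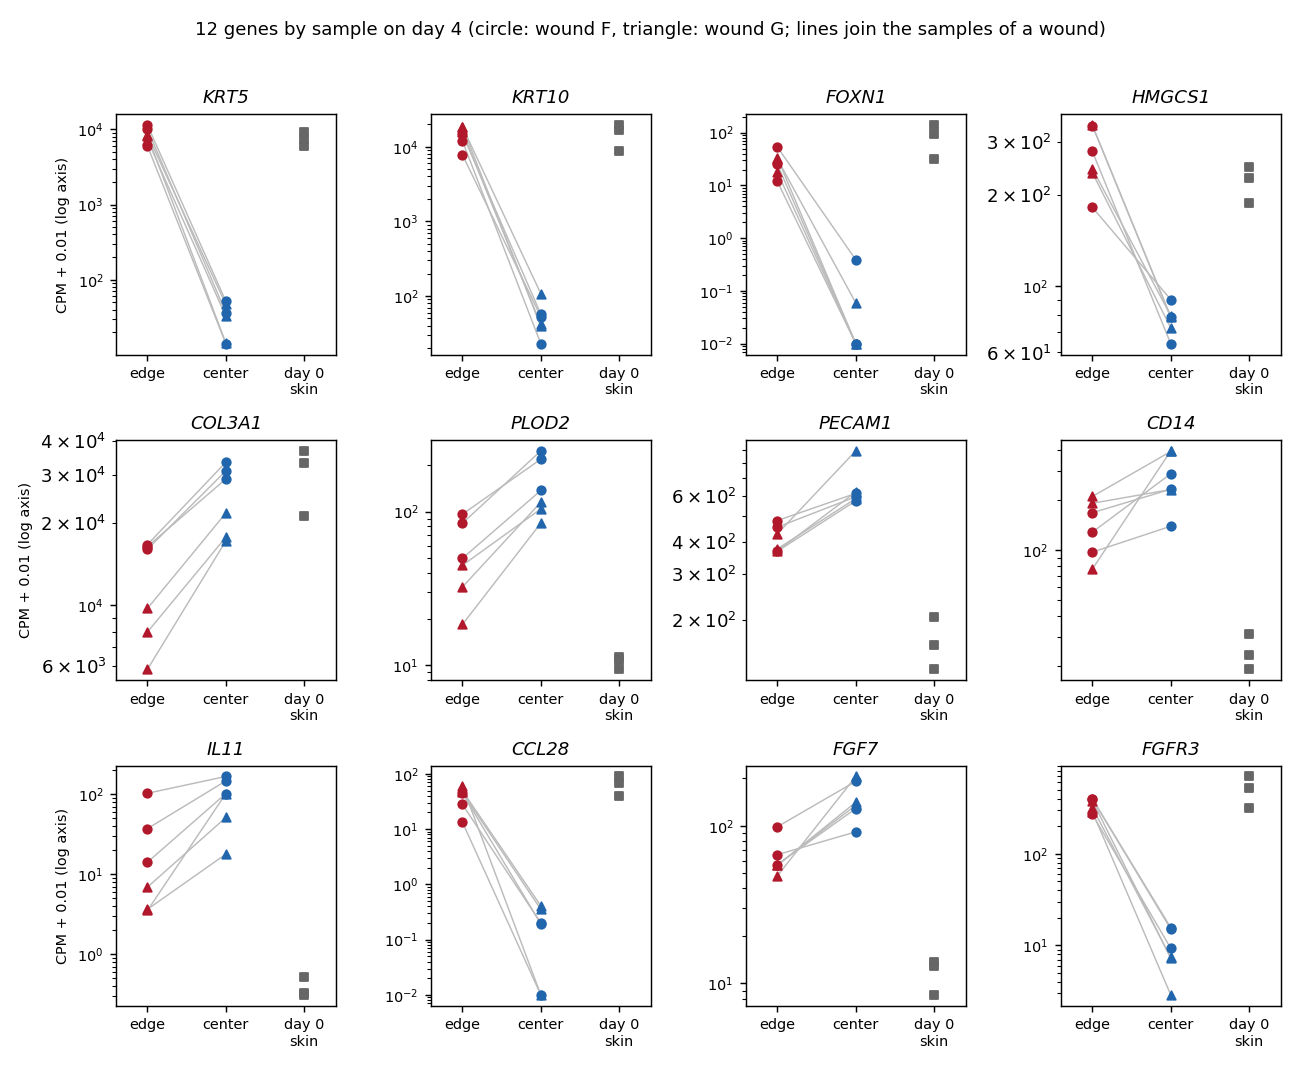
CPM + 0.01 on a logarithmic axis for 12 genes in each edge sample, each center sample and each of the 3 day 0 skin samples, with lines joining the samples of a wound. KRT5, KRT10, FOXN1, HMGCS1, CCL28 and FGFR3 were higher at the edge in 6 of 6 wounds, and COL3A1, PLOD2, PECAM1, CD14, IL11 and FGF7 were higher in the center in 6 of 6.

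Hair follicle genes were edge-high and uneven. Of 15 listed, 14 were found and 9 passed the filter on low counts. All 9 were higher at the edge, but members near 0 in the center, such as FOXN1, passed the filter only through edge counts. The summed level of the list was 7096 and 4737 CPM at the edges of wounds F and G of animal 1326, 3482 in wound G of animal 1328 and 788 in wound F of animal 1327. It was only 49.4 in wound G of animal 1327 and 36.9 in wound F of animal 1328, inside the center range of 1.96 to 44.3 for the latter. KRT31, a hair shaft keratin, was at 479, 273 and 216 CPM in the 3 richest edge samples and at 0 in the poorest. FOXN1, a transcription factor of hair and upper epidermal differentiation, did not vary this way. It was at 11.9 to 53.4 CPM in all 6 edge samples and at 0 to 0.379 in the center. Few center counts remained for such genes (7 in all for FOXN1), so their fold changes depend on the fit.

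Glands, pigment cells and nerve gave mixed counts. Of 8 gland genes 5 were higher at the edge and 3 in the center, of 3 pigment cell genes 1 each, and of 9 nerve genes 3 and 1. The 1 center call of the pigment list was lost without wound F of animal 1326, either wound of animal 1327 or wound G of animal 1328, that of the nerve list without either wound of animal 1326, wound F of animal 1327 or wound F of animal 1328, and both were lost without the block. Keratins and other gene families may share reads between near-identical members, so values of single members are uncertain. KRT77, a keratin listed here for sweat glands, was at 28.1 to 308 CPM at the edge, 0 to 0.589 in the center and 700 to 1055 in skin. SOAT1 and FADS2, lipid enzymes listed for sebaceous glands and made by other cells too, were higher in the center, SOAT1 without overlap (69.7 to 96.4 CPM against 27.4 to 50.5). SOX10, a factor of Schwann cells and melanocytes, was at 1.47 to 6.90 CPM at the edge and 0 to 1.33 in the center. The defining pigment genes PMEL, MLANA, TYR and TYRP1 fell under the filter.

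The matrix of the center differed from the edge in the opposite direction. Of 7 tested fibrillar collagen genes, 6 were higher in the center and 0 at the edge, with a median log2 difference of -0.84 against -0.06 over all genes. The edge count was also 0 at an unadjusted p below 0.05, and DESeq2 called 0. COL3A1, the chain of type III collagen, was at 17181 to 33351 CPM in the center and 5827 to 16660 at the edge. The locations did not overlap, and the log2 difference was -1.11 ± 0.12 (adjusted p = 0.000103). COL1A1, a chain of type I collagen, took 1.65% ± 0.896 (SD, n = 6) of counts at the edge and 2.71% ± 0.872 in the center, with overlapping ranges and a log2 difference of -0.80 ± 0.14. COL5A2, which joins type I fibrils at their start, had a larger difference of -1.35 ± 0.15.

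All 14 genes of collagen processing and crosslinking were higher in the center, with a median log2 difference of -1.04. PLOD2, a lysyl hydroxylase whose product forms stable crosslinks, was at 84.0 to 249 CPM in the center, 18.3 to 96.1 at the edge and 9.36 to 11.3 in day 0 skin. P3H1, a prolyl hydroxylase of collagen, was at 161 to 386 against 54.5 to 198, and the crosslinking enzyme LOX at 230 to 528 against 132 to 330. Their ranges overlapped between wounds, but each was higher in the center within 6 of 6 wounds. Without the wound as block, 3 of the 7 collagens and 5 of these 14 genes passed.

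The overlap followed the wound letter. Summed fibrillar collagens at the edge were 51672 to 67432 CPM in the 3 F wounds and 20581 to 26771 in the 3 G wounds, and in the center 89032 to 109400 and 51953 to 54657. The edge of an F wound thus reached the center of a G wound, while within each wound the center was higher. Summed adipocyte genes ran the other way in the center, at 6405 to 9618 CPM in G wounds and 1386 to 3614 in F wounds. With 3 wounds a letter, an exact permutation test could not go below p = 0.1, and no test of these levels was made. What F and G mean on the animal was not given in the labels.

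**Figure D3:**
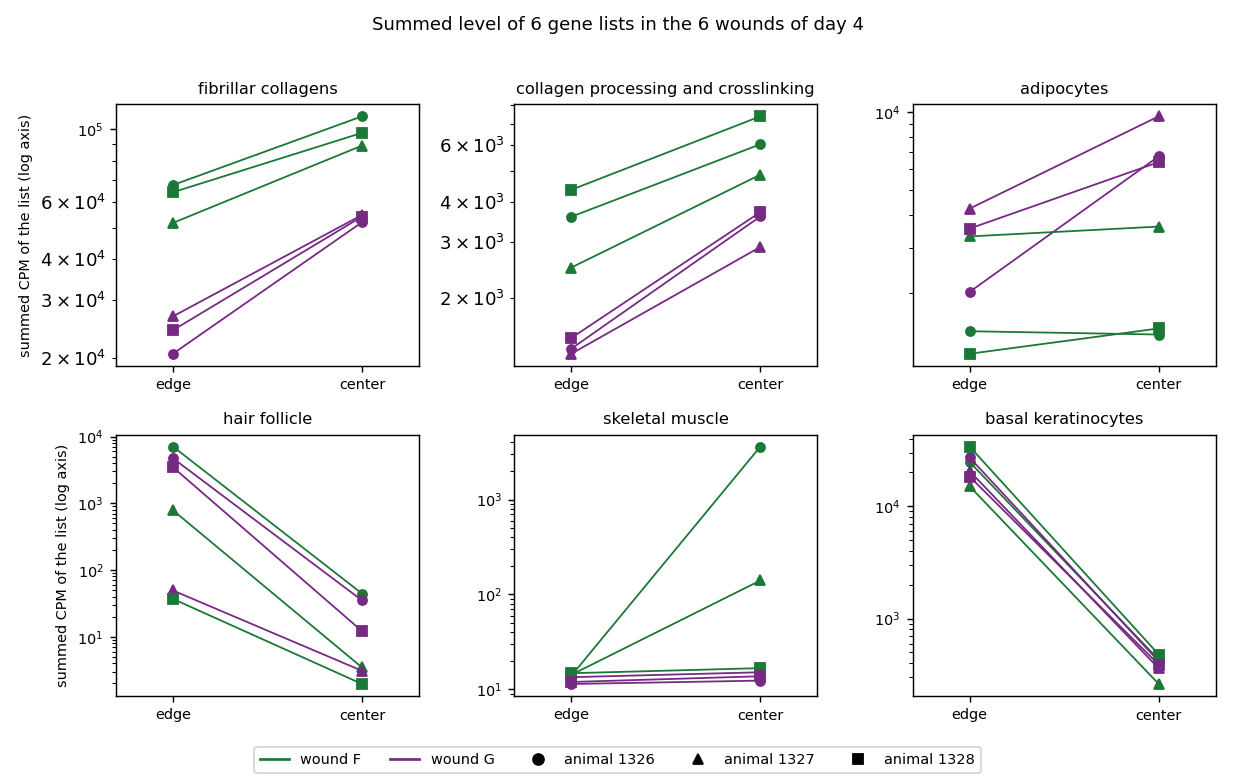
Summed CPM of 6 gene lists on logarithmic axes at the edge and in the center of each wound, colored by wound letter and marked by animal. Fibrillar collagens and their processing enzymes were higher in the center of 6 of 6 wounds, adipocyte genes were highest in the center of the 3 G wounds, and skeletal muscle genes reached 3616 CPM in 1 center sample.

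Other matrix genes were divided. Of 12 matricellular genes 6 were higher in the center and 2 at the edge, and of 15 proteoglycan and elastic fiber genes 10 and 3. Fibronectin (FN1), the provisional matrix protein, was at 875 to 4604 CPM in the center and 581 to 1726 at the edge (log2 difference -1.12 ± 0.17). Asporin (ASPN) was at 215 to 956 against 45.6 to 285, and EMILIN1, an elastic fiber protein, at 212 to 1049 against 101 to 539. Tenascin C (TNC) was at 986 to 4338 CPM in the center and 754 to 4108 at the edge and did not pass (adjusted p = 0.0558, and 0.0162 with DESeq2). The members higher at the edge were POSTN and EDIL3 of the first list and ELN, PRELP and FBLN1 of the second. POSTN, PRELP, FBLN1 and ELN were named after their values were seen. Elastin (ELN) differed by 1.61 and periostin (POSTN) by 1.81 on the log2 scale. Without the block, 2 genes of each list passed toward the center.

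Of 14 metalloproteinases and inhibitors 4 were higher at the edge and 4 in the center. Without wound F of animal 1327 these were 2 and 5, without wound G of animal 1326 or 1327 they were 3 and 6, and DESeq2 gave 4 and 7. MMP13, a collagenase, was at 12.5 to 59.3 CPM at the edge and 0.530 to 14.6 in the center. The log2 difference was 4.14 ± 0.56 (adjusted p = 0.00039). MMP1, the collagenase of migrating keratinocytes, was at 81.2 to 525 against 24.3 to 172, higher at the edge in 5 of 6 wounds (1.78 ± 0.56, adjusted p = 0.0308). Its call was lost without any 1 of 4 wounds, (wound G of animal 1326, both of animal 1327 and wound F of animal 1328), with adjusted p from 0.0604 to 0.0852. Both were below 0.6 CPM in day 0 skin. ADAM12, a membrane metalloproteinase of mesenchymal cells, was higher in the center (179 to 587 against 43.5 to 325). TNFAIP6, which modifies hyaluronan in inflamed tissue, was at 111 to 195 in the center and 20.5 to 70.7 at the edge, without overlap.

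Of 13 listed for resting dermal fibroblasts 4 were higher at the edge and 2 in the center, and the median log2 difference was 0.03. The edge count was 2 without wound G of animal 1327 or 1328, and without the block 2 were higher at the edge and 1 in the center. SFRP2, a secreted WNT modulator, was at 1103 to 3496 CPM in the center, 196 to 1879 at the edge and 7.91 to 24.2 in skin. The platelet-derived growth factor receptor PDGFRA was also higher in the center (398 to 793 against 174 to 501). PI16, a marker of resting fibroblasts, was higher at the edge (60.9 to 198 against 25.8 to 80.4, adjusted p = 0.0289) and at 447 to 1220 in skin. Its call was lost without wound F of animal 1326, wound G of animal 1327 or either wound of animal 1328, with adjusted p from 0.0531 to 0.082.

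Of 12 myofibroblast and smooth muscle genes 2 were higher in the center and 1 at the edge. The center count was 1 without wound F of animal 1326 or without the block and 4 without wound G of animal 1328, and the edge count was 2 without wound G of animal 1327 or wound F of animal 1328. Smooth muscle actin (ACTA2) was at 207 to 321 CPM at the edge and 202 to 371 in the center (adjusted p = 0.186, and 0.043 without wound G of animal 1328). MYH11, a myosin of vascular and hair muscle, was higher at the edge (1.09 ± 0.21). TPM2, a tropomyosin of smooth and skeletal muscle, was higher in the center (-1.10 ± 0.13, in 6 of 6 wounds). Of 13 skeletal muscle genes found, 5 were tested and 0 passed in either direction by edgeR or DESeq2, with 2 lower at the edge at an unadjusted p below 0.05 and 4 called without the block. CKM, the muscle creatine kinase, was at 463 CPM in the center of wound F of animal 1326, at 18.4 in that of wound F of animal 1327, and at most 1.29 in the other samples. Its adjusted p was 0.0837, and 0.0333 without wound G of animal 1326. Among 11 adipocyte genes 2 were higher in the center, a share near that of all genes. They were FABP4 and GPD1. Adiponectin (ADIPOQ) was at 393 to 3086 against 349 to 1112 (adjusted p = 0.058, and 0.01 with DESeq2). Without wound F of animal 1326, 5 adipocyte genes passed, ADIPOQ among them (adjusted p = 0.0389), and with the wounds of an animal summed 9 passed.

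Blood vessel endothelium was higher in the center for nearly all of its markers. Of 16 markers 15 were higher in the center and 0 at the edge, with a median log2 difference of -0.65. Leaving out 1 wound left 11 to 14, and 11 passed without the block. The lowest count, 11, was without wound F of animal 1326. The edge count was 0 at an unadjusted p below 0.05 too, and DESeq2 called 0. PECAM1, an adhesion protein of endothelial junctions, was at 574 to 892 CPM in the center, 367 to 482 at the edge and 129 to 206 in skin. ROBO4, a guidance receptor of endothelium, was at 49.2 to 69.3 against 20.8 to 49.0, and neither gene overlapped between locations. PLVAP, a protein of the diaphragms of capillary fenestrae, was higher in the center in 6 of 6 wounds (-0.81 ± 0.08).

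Lymphatic markers did not follow. CCL21, the chemokine of lymphatic vessels, was higher at the edge (16.4 to 57.2 CPM against 5.12 to 25.6, log2 difference 1.58 ± 0.21) in 6 of 6 wounds. PDPN, made by lymphatic cells and by basal keratinocytes and fibroblasts, was higher there as well (0.51 ± 0.11). LYVE1, a receptor of lymphatics and of some macrophages, was higher in the center with adjusted p = 0.0221, which was lost without either wound of animal 1326 or wound F of animal 1328 (adjusted p from 0.0505 to 0.0702). PROX1, the lineage factor of lymphatics, was at 0.772 to 4.99 CPM in both places and did not pass.

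**Figure D4:**
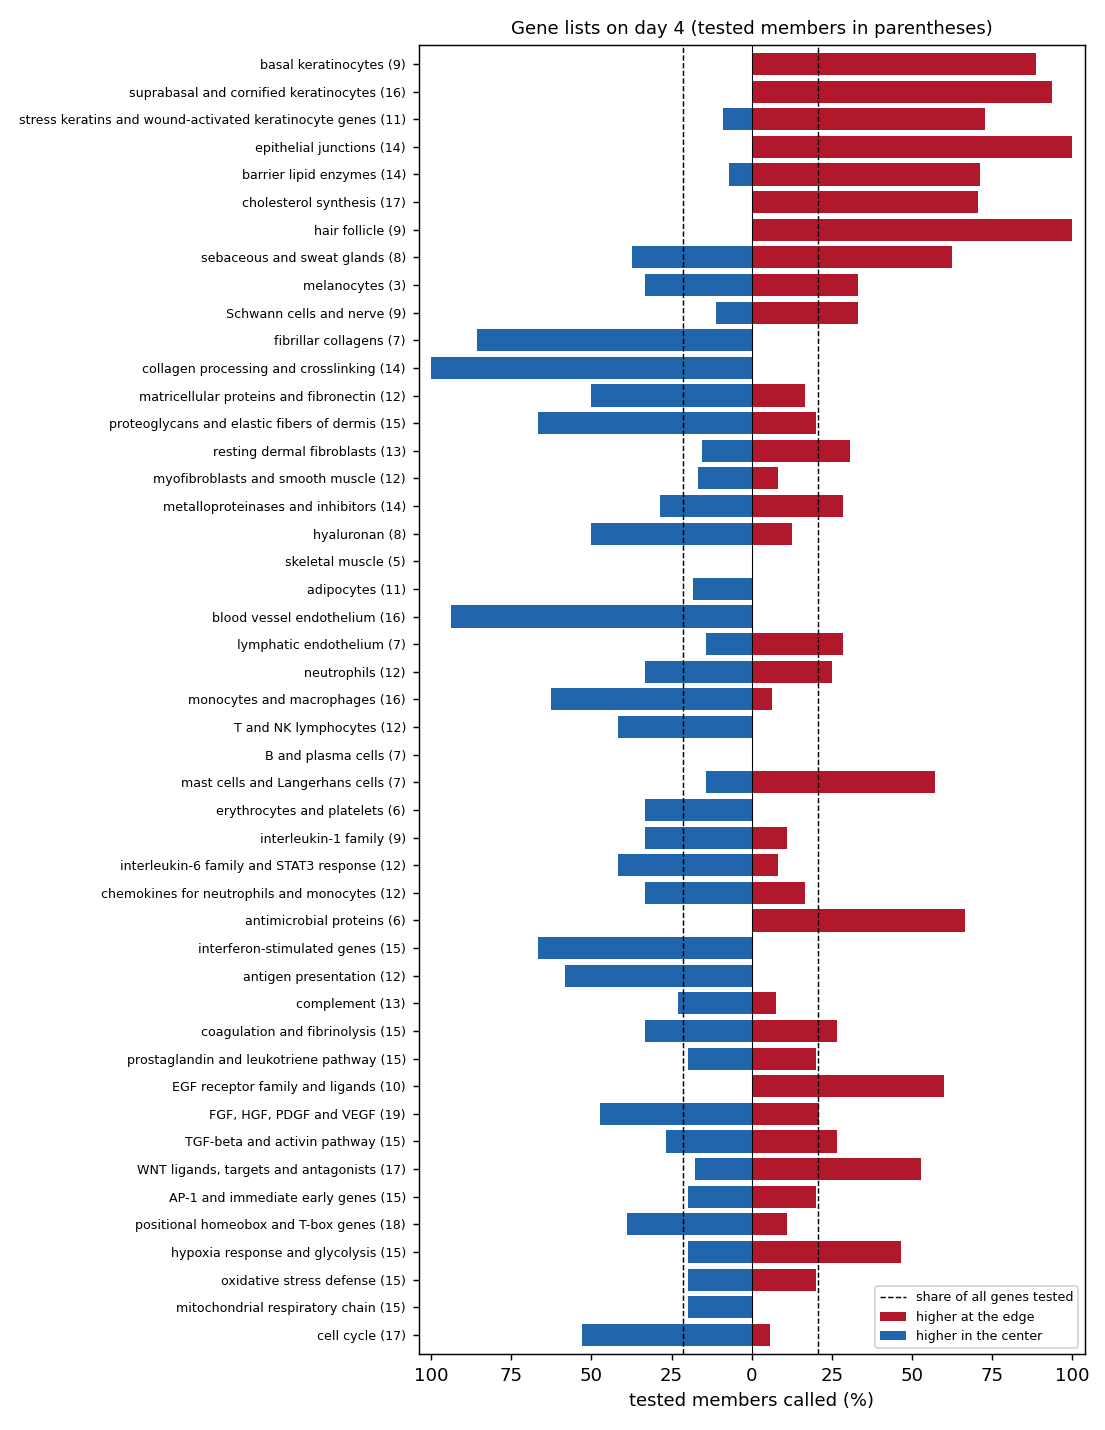
Percent of the tested members of each of 47 gene lists that were higher at the edge (to the right) or in the center (to the left), with the number tested in parentheses and dashed lines at the shares of all genes tested, 20.8% and 21.4%. Epidermal lists reach furthest to the right, and collagen processing, blood vessel endothelium and fibrillar collagens furthest to the left.

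Of 16 macrophage markers 10 were higher in the center and 1 at the edge. CD14, a receptor for bacterial lipopolysaccharide on monocytes, was at 139 to 396 CPM in the center, 76.9 to 210 at the edge and 19.2 to 31.3 in skin. The scavenger receptors MSR1 (42.2 to 202 against 23.4 to 122) and MARCO (16.2 to 51.0 against 8.13 to 30.0) were higher in the center in 6 of 6 wounds. CD68, the lysosomal marker of the list, was higher there in 6 of 6 wounds without passing (adjusted p = 0.0589, and 0.047 without wound G of animal 1327). Its adjusted p was 0.0231 with DESeq2, 0.0472 without TMM and 0.0257 with the wounds of an animal summed. The count of 10 rested on single wounds. It was 4 without wound G of animal 1326 or wound G of animal 1328, and 3 without the block.

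Of 12 neutrophil genes 4 were higher in the center, 0 of them without the block, and 3 at the edge. CSF3R, the receptor for granulocyte growth factor, was at 37.7 to 149 CPM in the center and 14.2 to 76.8 at the edge (-0.99 ± 0.26). The edge-high members were the calcium-binding proteins S100A8, S100A9 and S100A12, which stressed keratinocytes also make. S100A8 was at 46.2 to 520 CPM at the edge and 7.71 to 53.4 in the center (2.51 ± 0.39, adjusted p = 0.000913). Among T and NK lymphocyte markers 5 of 12 were higher in the center and 0 at the edge by edgeR, DESeq2 or unadjusted p below 0.05. CD3E, a chain of the T cell receptor complex, was at 6.24 to 9.08 against 2.41 to 8.75 CPM and did not pass. IL7R, the interleukin-7 receptor, did (13.4 to 40.1 against 5.77 to 27.0). The lymphocyte count was 3 and 2 without wounds F and G of animal 1326, 10 without wound F of animal 1327, 3 without wound F of animal 1328, and 1 without the block. Of mast and Langerhans cell markers 4 of 7 were higher at the edge and 1 in the center. The edge count was 2 without wound F of animal 1326, wound F of animal 1327 or wound G of animal 1328, and 1 without the block. The center call was lost without any 1 of these wounds or wound G of animal 1327. The edge-high markers included CD207, the langerin of epidermal dendritic cells, at 0.678 to 2.73 CPM against 0.309 to 0.713. Of 7 markers of B and plasma cells 0 passed by edgeR, by DESeq2 or at an unadjusted p below 0.05, and 1 passed without wound G of animal 1328.

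Of 9 genes of the interleukin-1 family 3 were higher in the center and 1 at the edge. The center count was 1 without wound F of animal 1326 or without the block and 5 without wound G of animal 1327. IL1B was at 6.89 to 172 CPM in the center, 2.91 to 74.9 at the edge and at most 0.0934 in skin (-1.08 ± 0.50, adjusted p = 0.112, and 0.0328 without wound G of animal 1327). CXCL8, the main neutrophil chemokine, was at 240 to 2942 against 183 to 1027 (adjusted p = 0.0555, and 0.0247 and 0.0284 without wound G of animals 1326 and 1327). Its adjusted p was 0.0477 with DESeq2, 0.0423 without TMM, 0.0346 without the filter and 0.0488 with the wounds of an animal summed. IL6 was at 7.46 to 37.8 against 6.00 to 37.4 (adjusted p = 0.336). IL1RN, the interleukin-1 receptor antagonist, was higher in the center in 6 of 6 wounds (88.2 to 362 against 33.8 to 144). Of the interleukin-6 list, 5 of 12 were higher in the center and 1 at the edge, and the center count was 3 without wound G of animal 1326 or 1328 and 0 without the block.

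IL11, an interleukin-6 family cytokine of stromal cells, was among the genes with the largest center excess. In the center it was at 148 and 51.4 CPM in wounds F and G of animal 1326, 102 and 17.9 in animal 1327, and 168 and 102 in animal 1328. At the edge it was at 37.3 and 6.90, 14.2 and 3.64, and 103 and 3.52 in the same order. It was higher in the center in each wound and lower in G than in F wounds in both places, and the log2 difference was -2.52 ± 0.44 (adjusted p = 0.00184). Day 0 skin held 0.299 to 0.514 CPM. Without the block it was -1.81 with adjusted p = 0.115. SOCS3, an inhibitor induced by this family, was at 235 to 503 CPM in the center and 76.5 to 260 at the edge.

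Of 12 chemokine genes 2 were higher at the edge and 4 in the center, with a median log2 difference of -0.79. The center count was 7 without wound G of animal 1327 and 1 without the block. CCL28, an epithelial chemokine, was at 13.3 to 60.3 CPM at the edge and 0 to 0.398 in the center. CX3CL1, the membrane-bound fractalkine, was at 18.4 to 27.5 against 4.42 to 10.5. CXCL12, a stromal chemokine, was higher in the center (99.2 to 134 against 50.5 to 88.1), and none of the 3 overlapped. IL36RN, the epidermal antagonist of interleukin-36, was at 10.5 to 28.7 CPM at the edge and at most 0.237 in the center. Of 6 tested antimicrobial genes 4 were higher at the edge. Lactoferrin (LTF) was at 48.3 to 695 CPM there, highest in wound G of animal 1327, and 0.178 to 2.54 in the center.

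Interferon-stimulated genes and antigen presentation leaned to the center, 10 of 15 and 7 of 12, with 0 at the edge in each by edgeR, by DESeq2 and at an unadjusted p below 0.05. MX1, an antiviral GTPase, was at 48.9 to 138 CPM in the center, 24.1 to 90.3 at the edge and 8.17 to 18.2 in skin (-0.84 ± 0.14). CD86, a costimulator on antigen-presenting cells, was at 69.1 to 156 against 36.9 to 87.0 (-0.91 ± 0.13). CD74, the invariant chain, differed by -0.28 ± 0.09, and its call was lost on leaving out any wound other than wound F of animal 1327 (adjusted p from 0.0586 to 0.084). Without the block, 1 gene of the first list and 2 of the second passed. Complement C3 was higher at the edge (51.1 to 189 against 19.7 to 65.0 CPM), while the receptors C3AR1 and C5AR1 were higher in the center by 0.80 and 0.87 on the log2 scale.

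The remaining blood and lipid mediator lists split. Of 15 coagulation genes 4 were higher at the edge and 5 in the center, the latter 3 without the block. Of 15 prostaglandin and leukotriene genes 3 passed each way, shares near those of all genes. Of 6 erythrocyte and platelet genes 2 were higher in the center. At the edge 0 of them were higher by edgeR, by DESeq2 or at an unadjusted p below 0.05. The platelet and erythrocyte count was 1 without any of the 3 F wounds and 0 without the block. Of 13 complement genes 1 was higher at the edge and 3 in the center, the latter a share near that of all genes. That center count was 6 without wound F of animal 1326 and 0 without the block. Of 8 hyaluronan genes 1 was higher at the edge and 4 in the center.

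Growth factor and receptor genes were called in both directions. Of 10 tested genes of the EGF receptor family 6 were higher at the edge and 0 in the center by edgeR, by DESeq2 or at an unadjusted p below 0.05. EGFR was at 175 to 284 CPM against 34.0 to 69.7, ERBB2 at 85.9 to 149 against 19.1 to 23.4, and ERBB3 at 89.1 to 163 against 4.51 to 18.0. All 3 receptors were separate between locations. The 6 also included a ligand, EREG, higher at the edge in 6 of 6 wounds (1.92 ± 0.48, adjusted p = 0.0115). Of the FGF, HGF, PDGF and VEGF list 4 of 19 were higher at the edge and 9 in the center. The edge-high members included FGFR3 (269 to 398 against 2.88 to 15.6) and MET, the receptor for HGF (30.9 to 66.4 against 5.40 to 8.59). The center-high members included ligands such as FGF7, a stromal growth factor for keratinocytes. It was at 91.4 to 205 CPM in the center, 48.1 to 98.6 at the edge and 8.45 to 13.6 in skin (-1.21 ± 0.17, adjusted p = 0.000582). The row used for FGF7 carries another gene's name with an FGF7 protein match, so its identity is uncertain.

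Of 15 TGF-beta and activin genes 4 were higher at each location, shares little above those of all genes. Without the block 2 were higher in the center. INHBA, the activin A subunit, was at 57.9 to 175 CPM in the center, 23.7 to 93.5 at the edge and 2.04 to 3.84 in skin. BMP2 (7.69 to 17.7 against 1.77 to 4.46) and the activin antagonist follistatin (FST, 6.44 to 12.8 against 2.10 to 6.09) were higher at the edge without overlap. TGFB1 was higher in the center by a small margin (-0.44 ± 0.11). In the WNT list 9 of 17 were higher at the edge and 3 in the center, the latter 1 without the block. The ligands WNT3 (40.6 to 66.9 against 0.632 to 1.46) and WNT10A (10.2 to 21.4 against 0 to 0.246) and the target AXIN2 (12.2 to 20.9 against 2.91 to 7.54) were each separate between locations.

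Transcription factors that mark body position were higher in the center for 7 of 18 and at the edge for 2. The edge count was 1 without wound G of animal 1326 or 1328 and without the block. TBX2, a T-box factor, was at 57.6 to 105 CPM in the center, 25.1 to 66.3 at the edge and 12.3 to 14.0 in skin. TBX18 (9.05 to 14.3 against 3.02 to 7.69) and HOXD8 (34.0 to 55.2 against 21.5 to 31.1) did not overlap. Of 15 immediate early genes 3 were higher at the edge and 3 in the center, shares near those of all genes. The center count was 1 without any of the 3 F wounds or wound G of animal 1328 and 0 without the block. JUN was higher at the edge (0.68 ± 0.12), and FOS was at 46.7 to 254 against 92.0 to 329 CPM and did not pass.

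Of 15 hypoxia and glycolysis genes 7 were higher at the edge and 3 in the center. NDRG1, a stress-induced gene, was at 308 to 540 CPM at the edge and 95.1 to 201 in the center (1.55 ± 0.08), and BNIP3, a mitophagy receptor, at 175 to 465 against 81.8 to 146. The glucose transporter SLC2A1, whose row also carries another gene's name, was at 240 to 405 against 35.7 to 91.7. Among oxidative stress genes 3 of 15 passed in each direction, shares near those of all genes. NQO1, a quinone reductase, was at 47.1 to 994 CPM at the edge, 20.2 to 46.8 in the center and 17.6 to 52.4 in skin. GPX2, an epithelial glutathione peroxidase, was at 14.1 to 49.2 against 0.0911 to 0.822. Of 15 mitochondrial respiratory genes 3 were higher in the center, a share near the 21.4% of all genes, by at most 0.41 on the log2 scale. That count was 1 without either wound of animal 1326, wound F of animal 1327 or wound G of animal 1328.

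Of 17 cell cycle genes tested 9 were higher in the center and 1 at the edge, with a median log2 difference of -0.32. TOP2A, the topoisomerase of dividing cells, was at 167 to 321 CPM in the center, 132 to 196 at the edge and 48.9 to 64.8 in skin (-0.48 ± 0.10). MKI67, a general marker of cycling cells, was at 79.6 to 220 against 78.8 to 222 and did not differ beyond its spread (0.09 ± 0.08, adjusted p = 0.374). The center count dropped to 3 without wound F of animal 1326 or wound F of animal 1327, to 4 and 5 without wound G and wound F of animal 1328, and to 1 without the block.

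Some of the genes with the largest center excess were in none of these lists. C1QTNF3, a secreted C1q-related protein, was at 17.3 to 480 CPM in the center and 4.53 to 136 at the edge. The log2 difference was -2.51 ± 0.22 (adjusted p = 2.59e-05). CORIN, a protease that activates natriuretic peptides, was at 3.29 to 59.0 against 0.369 to 15.4. CHST6, a sulfotransferase of keratan sulfate, was at 16.0 to 134 against 4.53 to 61.1. The ranges of these genes overlapped, and each was higher in the center in 6 of 6 wounds. The muscle genes PGAM2 and MYBPC2 also ranked here, at 126 and 75.7 CPM in the center of wound F of animal 1326 and at most 7.96 and 8.43 in the other samples. Without that wound PGAM2 differed by -1.86 and MYBPC2 by -1.21, the latter with adjusted p = 0.087. MYBPC2 also lost its call without wound G of animal 1326 (0.0779) or wound F of animal 1327 (0.127, both adjusted p).

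The difference between edge and center was then compared between wounds and animals. Between the F and G wounds it differed for 14 of 14489 genes (0.0966% called), larger in F wounds for 4 and smaller for 10, with 1448 genes at an unadjusted p below 0.05. The following 2 genes were named after their values were seen. GLYATL2, a glycine acyltransferase, was at 12.1, 28.3 and 3.13 CPM at the edge of the F wounds and at 167, 435 and 216 at that of the G wounds, and at 2.20 to 4.42 in the center. SFRP4, a secreted WNT modulator, was higher at the edge in F wounds and in the center in G wounds (log2 differences 0.82 and -1.12). DESeq2 called 312. Leaving out 1 wound gave 0 genes for either wound of animal 1326, 13 and 2 for wounds F and G of animal 1327, and 1 and 61 for those of animal 1328. Between the 3 animals 0 of 14489 genes differed (0% called) by edgeR, with 490 at an unadjusted p below 0.05, and 55 passed with DESeq2.

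Finally the day 4 difference was set against those of days 2 and 6 in the same 3 animals, with the interaction of day and location. Day 2 samples came from wounds A and L, day 4 samples from F and G, and day 6 samples from B and K. Day therefore cannot be told apart from wound letter, and no wound was followed over time. Against day 6, 0 of 15183 genes differed (0% called) by edgeR, 941 were at an unadjusted p below 0.05, and DESeq2 called 33. Against day 2, 98 of 15541 genes differed (0.631% called), 20 with a larger edge minus center value on day 4 and 78 with a smaller one. DESeq2 called 1010 genes, and 2531 were at an unadjusted p below 0.05. The count depended on single wounds of both days. The paper names 1 center sample of day 2 among those that deviated from their replicates, and all day 2 samples were kept here. Leaving out day 2 wounds A and L gave 13 and 26 genes for animal 1326. It gave 75 and 310 for animal 1327, and 22 and 110 for animal 1328. The count fell to 1 without either day 4 wound of animal 1328 or the day 4 F wound of animal 1326 or 1327. The gene left was CRABP2.

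CRABP2 is a carrier of retinoic acid. Its mean was 79.4 CPM at the edge and 30.0 in the center on day 2, and 112 and 187 on day 4. It was edge-high on day 2 and center-high on day 4, a difference of -2.14 ± 0.20 on the log2 scale (adjusted p = 0.00115). It was named after its values were seen. Of the genes named by rule, those whose edge excess fell most short of day 2 had higher center means on day 4. COL7A1, the collagen of anchoring fibrils, was at a mean of 3.83 CPM in the day 2 center and 114 in the day 4 center, and at 331 and 327 at the edge. On day 4 the center value was carried by F wounds of animals 1328 (447 CPM) and 1326 (117), with 7.54 to 41.2 in the others. In the center BNC1, a keratinocyte transcription factor, was at means of 0.175 CPM on day 2 and 4.62 on day 4. WNT7B was at 0.890 and 7.94 there, and MMP1 at 7.41 and 71.5.

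Of the genes named by rule whose edge minus center value was larger on day 4, HK2, TLN2, RGS4 and CNTFR had values below 0 on day 2. HK2, a hexokinase, was at a mean of 273 CPM in the day 2 center and 64.2 in the day 4 center, with 62.6 and 86.3 at the edge. TLN2, a talin, had center means of 108 and 34.1 CPM and edge means of 28.1 and 28.0. KIF21A, a kinesin, was edge-high on both days, by 2.00 and 3.97 on the log2 scale. MKI67 was also among the 98 and was named after its values were seen. Its center means were 41.9 and 121 CPM and its edge means 128 and 132 on days 2 and 4.

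**Figure D5:**
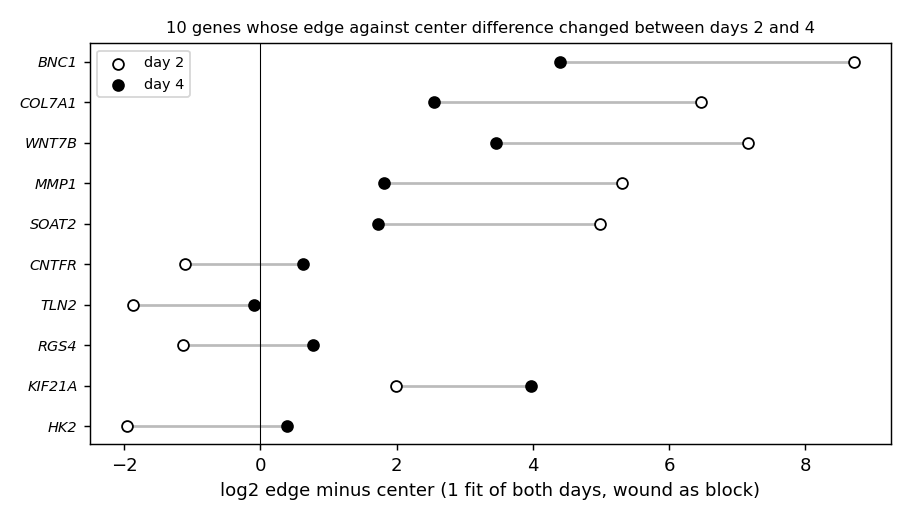
Log2 edge minus center difference on day 2 (open circles) and day 4 (filled circles) for the 10 genes named by rule, from 1 fit of both days. BNC1, COL7A1, WNT7B, MMP1 and SOAT2 had smaller edge excess on day 4, and CNTFR, TLN2, RGS4, KIF21A and HK2 had larger values on day 4.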

How the data were processed

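Poly-A selected RNA of the 12 day 4 biopsies, of the day 2 and day 6 biopsies and of day 0 skin was sequenced by Novogene with paired Illumina reads. The authors deposited a table of raw counts per gene (30461 genes), which was used here, and a table of FPKM values, which was not used. The aligner, counter, genome build and strandedness are not given in the sources used here. Samples were grouped by the day and location in their labels. Counts were filtered with filterByExpr (minimum count 10, minimum total 15), TMM-normalized and tested with edgeR 4.0.16 (R 4.3.3, quasi-likelihood test, wound as block, adjusted p below 0.05). Interactions with day, wound letter and animal were tested in the same way. Levels are TMM-normalized counts scaled to a common library size (CPM), and day 0 skin is given as a description. The wound pairs an edge with a center sample by the labels, and the deviations of the 2 samples from their group means correlated with r from 0.26 to 0.60 in the 6 wounds. Alternatives were no block, no TMM, no filter, DESeq2 1.42.0, leaving out each wound, animals summed, days 2, 4 and 6 in 1 fit, and no keratin genes, the last chosen after seeing the data. The tests were checked on simulated data. The simulated edge against center changes were few and balanced in direction, unlike those found here, so the check does not cover that imbalance.

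The 47 gene lists (642 symbols, 601 found) and the tests were chosen with earlier results of these data known. Named genes were the 10 with the largest difference each way (same direction in 6 of 6 wounds, mean of at least 10 CPM), of each list the first gene and up to 3 with the smallest p, the 5 with the largest share of counts at each location, and the 5 largest and 5 smallest differences between days. Genes named otherwise are list members given to account for a count, or are marked in the text as chosen after their values were seen. For 635 genes the name column and the protein match named different genes. This departs from the planned use of the name column: such listed genes were taken from the row whose protein match names them (5 of them carry another name there), or left out. Counting precision rests on 13710527 to 21782605 counts per library. Some items are not reported here.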

Additional observations from a re-analysis of the deposited data

Results flagged for a closer look

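In 6 of 94 groups of 6 samples, 1 sample's summed list level stood far from the others (by Dixon's criterion), and chance flags about 1 in 20 groups. In the center of wound F of animal 1326 these were the skeletal muscle genes (3616 CPM, next sample 140) and the myofibroblast and smooth muscle genes (3189 CPM, next 1817). Erythrocyte and platelet genes stood apart at the edge of wound G of animal 1326 (57.7 CPM, next 24.5). Antimicrobial genes did so at the edge of wound G of animal 1327 (1065 CPM, next 392) and, as the lowest value, in the center of wound F of animal 1328 (192 CPM, next 232). Oxidative stress genes did so in the center of wound G of animal 1327 (6308 CPM, next 4318).

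Day 2 and day 4 samples came from wounds of different letters, so day and wound letter cannot be told apart. The log2 edge minus center difference differed between these days, by the interaction test, for 10 genes named by rule. It was smaller on day 4 for BNC1 (-4.32), COL7A1 (-3.92), WNT7B (-3.70), MMP1 (-3.49) and SOAT2 (-3.25). It was larger for HK2 (2.35), KIF21A (1.98), RGS4 (1.90), TLN2 (1.78) and CNTFR (1.73). Each of these 10 calls was lost without any 1 of wounds F of animals 1326, 1327 and 1328 or wound G of animal 1328 on day 4. Between wounds F and G the difference itself differed for 14 genes.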

How the results depend on the processing

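Of 1916 alternative values for 148 named genes, 1812 kept their direction and side of the threshold, 75 lost and 29 gained the call, and none reversed. Many of these genes were named for a large difference or small p in the same data, which favors keeping the call. Of all 6116 genes called, 3976 kept the call without the block and 4496 in the fit of days 2, 4 and 6. Leaving out a wound kept 4745 to 5442 of them. Without the wound as block, 4022 genes passed, 1646 of them higher in the center, and the fit of days 2, 4 and 6 gave 2056 higher in the center. The cause was not tested. Of the 148 genes, 31 lost the call without the block: IL11, C1QTNF3, CORIN, DCHS2, CHST6, MITF, COL1A1, COL1A2, LOX, DCN, EMILIN1, SFRP2, TPM2, ADAM12, FABP4, CSF3R, MSR1, MARCO, CCL5, IL7R, CD1E, IL1RN, SOCS3, MX1, IFIT3, CD74, C3AR1, C5AR1, TGFB1, TPX2 and MCM5. The genes that differed between days 2 and 4 numbered 22 without the block, 1010 with DESeq2 and 1 to 310 on leaving out a wound. Between days 4 and 6 DESeq2 gave 33, and leaving out a wound 0 to 1. Between wounds F and G there were 0 without the block, 8 without TMM, 176 without the filter, 312 with DESeq2 and 0 to 61 on leaving out a wound. Between animals there were 15 without the filter, 55 with DESeq2 and 0 to 1 on leaving out a wound. Counts of genes near 0 in the center limit the precision of their folds, and 3 animals limit all comparisons.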
